A study of Homo sapiens with 2 samples.

Results

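Sites listed for RNA crosslinked to the transcription factor SOX2 were counted on the minus strand of one gene-dense stretch of chromosome 11. The stretch was hg19 positions 62300001 to 62415000, a window of 115 kb. As it was defined, the window runs from the 5′ end of AHNAK through EEF1G, TUT1, MTA2 and EML3 to GANAB. It held 20 of the 16964 sites listed for replicate 1 and 72 of the 55830 sites listed for replicate 2. The window was chosen by the number of minus-strand sites that it holds in these same lists. That number and the excess over the plus strand are therefore given as a description and support nothing.

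The material was HEK293T, an immortal line derived from human embryonic kidney, transfected with a plasmid for FLAG-tagged SOX2. The cells took up 0.2 mM 4-thiouridine, a photoreactive uridine, for 16 hours and were irradiated at 365 nm. RNA was cut with RNase T1 and recovered by FLAG immunoprecipitation (PAR-CLIP). Both libraries form 1 group and were labelled as independent experiments, and no library without SOX2 or without the antibody is used here. SOX2 was supplied from a plasmid, so any contacts among the sites are those of an overexpressed, tagged protein. Without such a control, background sites cannot be told from contacts here, and RNA abundance was not measured beside them.

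SOX2 is best known for binding DNA through its HMG box and for its use in reprogramming cells to pluripotency. In PAR-CLIP, ultraviolet light links 4-thiouridine to protein that touches it, so a site marks a short RNA stretch that was near the purified protein. A site can lie in spliced mRNA or in an intron of the precursor, and its number of reads depends both on contact and on how much of the RNA the cell makes.

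The genes of the window serve varied cell functions. AHNAK encodes a very large scaffold protein of the plasma membrane and cytoplasm. EEF1G encodes the gamma subunit of translation elongation factor eEF1, and TUT1 a terminal uridylyltransferase that adds uridines to a spliceosomal small nuclear RNA. MTA2 belongs to the NuRD chromatin remodelling and deacetylase complex, and EML3 to a family of microtubule-binding proteins. GANAB encodes the catalytic subunit of glucosidase II, which trims glucose from glycoproteins in the endoplasmic reticulum.

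All 6 named genes were found in GENCODE release 29, where they lie on the minus strand in the order given. The same annotation holds more protein-coding genes of the minus strand in this order. B3GAT3, a glucuronyltransferase of proteoglycan linker synthesis, lies between EML3 and GANAB, and INTS5, a subunit of the Integrator complex, follows GANAB. A minus-strand entry known only by a clone name, AP002990.1, and the microRNA gene MIR6747 lie between EEF1G and TUT1 in order of their start. The plus strand holds 1 protein-coding gene in this order, ROM1, a membrane protein of photoreceptor outer segments, and 3 antisense RNAs. That annotation is on GRCh38 and the sites are on hg19. Only its names, strands and order are used, and sites are given by position and were not assigned to single genes, exons or introns. The bases under the sites are not printed, because no sequence of the lists' build was used.

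The value deposited for each site is a whole number of at least 5, called score here, and no source used here states what it counts. Read depth is unknown. The list score sums were 5365592 in replicate 1 and 5192778 in replicate 2, while replicate 2 listed 3.29-fold more sites. Both lists were dominated by a single site outside chromosome 11, which took 29.1% and 13.5% of the score sum.

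The minus strand held nearly all sites of the window. Replicate 1 had 20 sites on the minus strand and 1 on the plus strand, and replicate 2 had 72 and 1. The minus-strand share was 95.2% (95% Wilson interval 77.3 to 99.2) in replicate 1 and 98.6% (92.6 to 99.8) in replicate 2, against 48.5% and 48.1% of all sites in the lists. The plus-strand site of replicate 1 lay at 62370093 to 62370106 with a score of 39, and that of replicate 2 at 62381866 to 62381885 with a score of 10. They were 11759 nt apart and so did not overlap. Over the whole lists, 21.3% of replicate 1 sites and 6.50% of replicate 2 sites overlapped a site of the other list. With 1 plus-strand site per list, no contrast with the minus strand is drawn from this. The window was chosen for its minus-strand sites, so neither this share nor its interval tests a preference for a strand. Intervals here and below cover counting error over sites only, and neighbouring sites may come from the same RNA.

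The sites were short and covered little of the window. In replicate 1 they measured 14 to 25 nt and in replicate 2 they measured 14 to 62 nt, with a median of 17 nt in both, against list medians of 16 nt and 17 nt. Together the sites covered 0.301% of the window in replicate 1 and 1.19% in replicate 2.

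**Figure D1:**
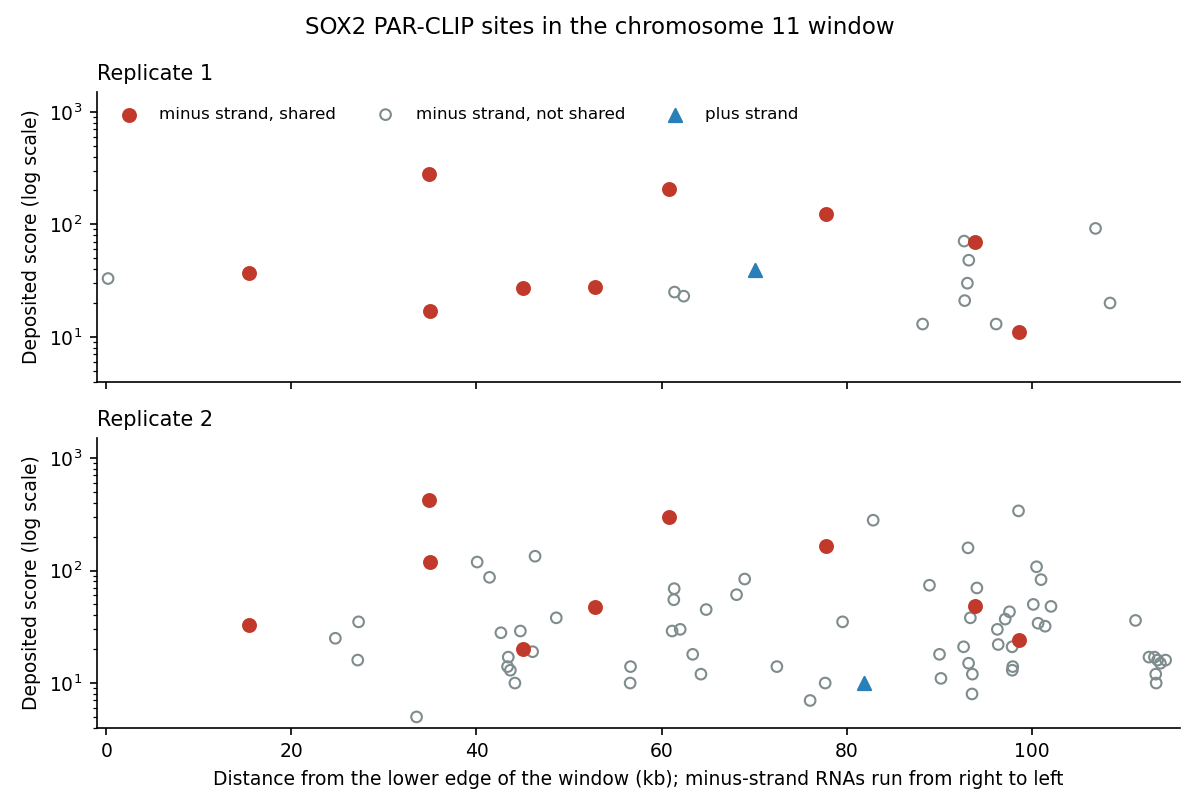
Each point is 1 site of the window, with its distance in kb from the lower edge of the window on the x axis and its score on a log y axis, for replicate 1 above and replicate 2 below. Filled circles are minus-strand sites that overlap a site of the other replicate (9 in each), open circles other minus-strand sites, and triangles the 1 plus-strand site of each list.

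Most sites of the window were of moderate strength for their lists. The median score of the sites was 29 in replicate 1 and 29 in replicate 2, against medians of 26 and 19 over the whole lists. The quartiles in replicate 1 were 20.8 and 69.5 for window sites, against 15 and 58 for the list. For replicate 2 they were 15 and 51.2, against 12 and 37. The share of sites with scores of at least 100 was 15% (3 sites) in replicate 1 and 13.9% (10 sites) in replicate 2, against 14.8% and 7.34% of the lists. In replicate 1 this share was close to that of the list, and in replicate 2 it was higher.

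**Figure D2:**
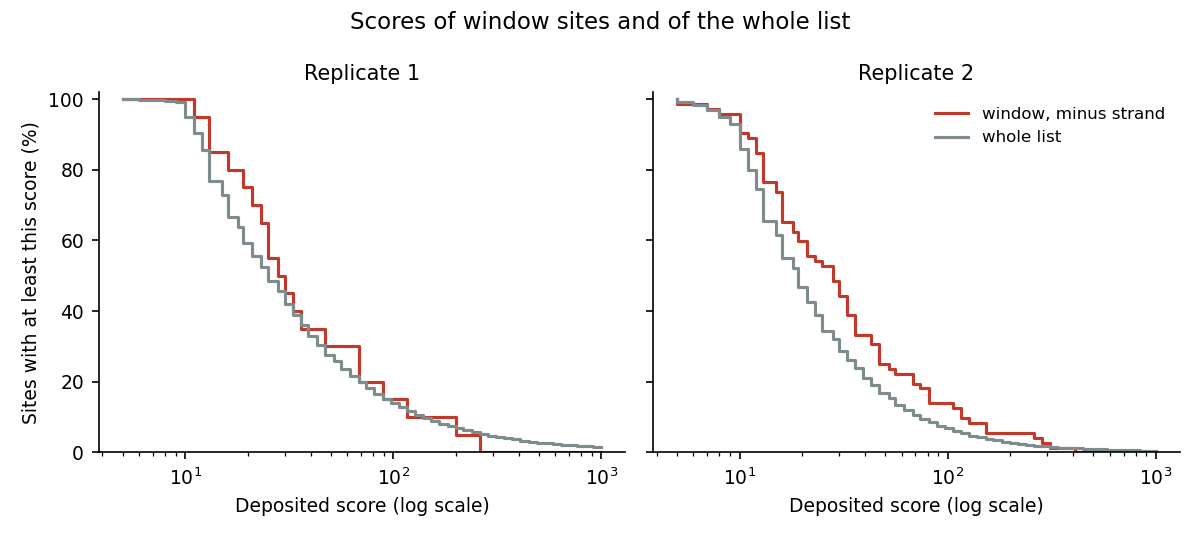
The curves give the share of sites, in percent, with at least the score on the log x axis, for minus-strand window sites and for the whole list in each replicate. At a score of at least 100 the replicate 1 curves are at 15% and 14.8%, and the replicate 2 curves are at 13.9% and 7.34%.

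No site of the window came near the strongest of its list. The summed score was 1185 in replicate 1 and 3976 in replicate 2, which is 0.0221% and 0.0766% of the list sums. By number, the sites made up 0.118% and 0.129% of the lists. These sums run over 20 and 72 separately listed sites, and leaving the 10 strongest sites out of the list sums raises the shares to 0.0548% and 0.117%. Within the window the 5 strongest of 20 sites held 65.0% of the score in replicate 1, and the 5 strongest of 72 held 37.8% in replicate 2. These 2 shares are not comparable, because the numbers of sites differ.

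Both experiments found the same 9 places. Of the sites in replicate 1, 9 of 20 (45%, Wilson interval 25.8 to 65.8) shared at least 1 nt with a minus-strand site of replicate 2, against 21.3% of the whole list. Of the sites in replicate 2, 9 of 72 (12.5%, interval 6.72 to 22.1) were shared, against 6.50% of the whole list. These 9 sites carried 67.2% of the window's score in replicate 1 and 29.6% in replicate 2. The number shared was known when the window was chosen, so no test was made.

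From a score of 10 upward, stronger sites are shared more often in both lists. Below 10, 17.9% of replicate 1 list sites were shared, against 7.17% at scores of 10 to 19. The shares were therefore also set beside list sites of the same score classes. At the score classes of the window sites, 23.9% of replicate 1 list sites and 8.65% of replicate 2 list sites were shared, given as a description beside the 45% and 12.5% of the window. All 3 replicate 1 sites with scores of at least 100 were shared, against 49.1% of such sites in the list. Of the 10 replicate 2 sites of that strength, 4 were shared, against 28.9% in the list. The window was dense in sites in both lists, and the part of this density in the overlap was not tested.

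The strongest site of the window was the same in both lists. Replicate 1 placed it at 62334901 to 62334917, with a score of 278. Replicate 2 placed it at 62334901 to 62334914, with a score of 424. Of the sites in their lists, 94.7% and 98.8% scored lower. Both copies began at the same position on the genome, which on the minus strand is the downstream edge of the RNA.

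A second shared site lay 40 nt further up the chromosome and differed most between the experiments. It scored 17 at 62334958 to 62334978 in replicate 1 and 118 at 62334955 to 62334968 in replicate 2, 6.94-fold more in replicate 2. The 2 sites form the only shared places less than 1 kb apart in the window.

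The next strongest pair scored 206 at 62360853 to 62360868 in replicate 1 and 296 at 62360854 to 62360869 in replicate 2. Each copy was 16 nt long, and replicate 2 was shifted by 1 nt at both edges. A further pair scored 123 at 62377762 to 62377780 in replicate 1 and 165 at 62377759 to 62377780 in replicate 2. It shared its upper edge, the upstream edge of the RNA. These places ranked in the same order in both lists, behind the pair at 62334901.

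Exactly the same edges were found for 1 pair, against 194 of all 3636 pairs of the lists. The pair of the window, 62393867 to 62393883, had scores of 69 (replicate 1) and 48 (replicate 2). It lay in the densest part of the window, described below.

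The remaining pairs had scores below 50 in both lists. The pair nearest the lower edge scored 37 at 62315463 to 62315482 in replicate 1 and 33 at 62315455 to 62315471 in replicate 2. The pair at 62344997 to 62345010 in replicate 1, with a score of 27, met a replicate 2 site at 62345003 to 62345020 with a score of 20. These 2 pairs were the most loosely matched, with 9 nt and 8 nt in common.

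A replicate 1 site with a score of 28, at 62352801 to 62352814, met a replicate 2 site with a score of 47, at 62352804 to 62352817. The weakest replicate 1 site of the window, with a score of 11 at 62398624 to 62398637, fell wholly inside a replicate 2 site at 62398623 to 62398640 with a score of 24. Shared sites with scores below 20 numbered 2 in replicate 1 and 0 in replicate 2.

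**Figure D3:**
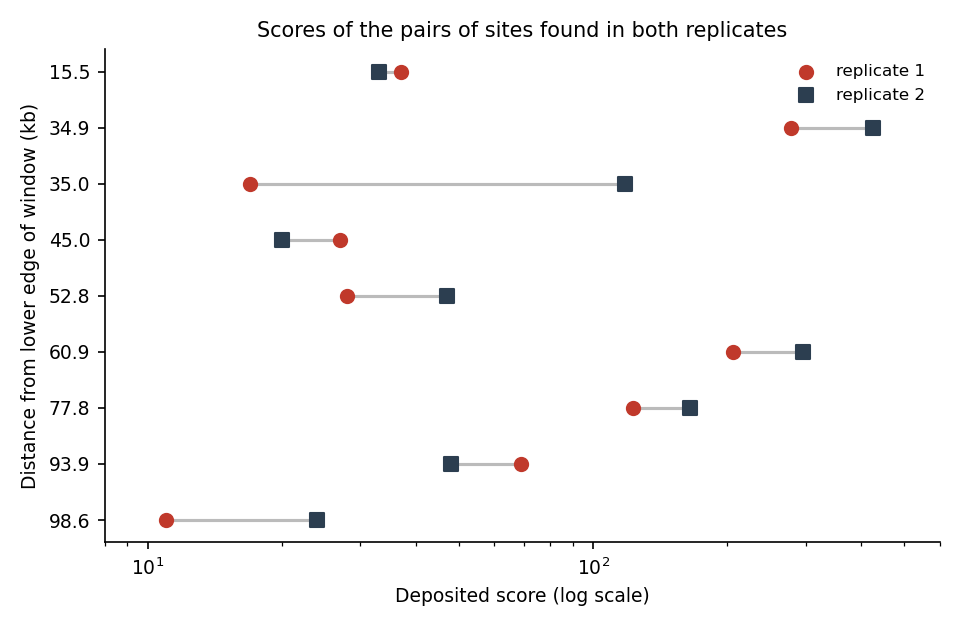
Each row is 1 of the 9 shared pairs, placed by the distance of its replicate 1 site from the lower edge of the window, with the score in replicate 1 (circle) and in replicate 2 (square) on a log axis. Replicate 2 is higher in 6 pairs and replicate 1 in 3, and the pair 35.0 kb from the edge, with 17 and 118, is the widest apart.

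Taking the 9 pairs as a set, the log2 ratio (replicate 1 over replicate 2) of the scores was -0.52 at the median and ran from -2.80 to 0.52, with an SD of 1.01. Replicate 1 was higher in 3 pairs and replicate 2 in 6. Over all 3636 pairs of the lists the median was 0.21, on the other side of 0, with an SD of 1.37. Among those, replicate 1 was higher in 2038 and replicate 2 in 1559. These differences between the window and the lists were not tested. The order of the scores was similar in both lists, with Spearman's rho of 0.783 and Pearson's r of 0.806 on log10 scores over the 9 pairs. This is across sites, which share their libraries.

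Edges were close in most pairs. The starts differed by 3 nt at most in 7 of the 9 pairs (77.8%), against 51.1% of all pairs of the lists. The ends did so in 6 of the 9, against 1889 of all 3636 pairs. The start was identical in 2 pairs and the end in 2. Over all pairs of the lists, starts coincided in 16.5% and ends in 17.6%. RNase T1 cuts after guanosine in both experiments, and its part in the shared edges was not tested.

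The replicate 1 sites that did not overlap were mostly near a replicate 2 site. Of the 11, 8 had one within 1000 nt on the same strand and 5 within 100 nt, with a median distance of 114 nt. Over all 20 sites of replicate 1, overlapping ones included, 85% had a replicate 2 site within 1000 nt, against 53.3% of the list. The window was chosen by its number of sites in these lists, which by itself shortens such distances. They are given as a description and support nothing. The nearest miss lay at 62393197 to 62393213, with a score of 48, only 4 nt from a replicate 2 site with a score of 15. The strongest site of replicate 1 that was not shared scored 92 at 62406890 to 62406908 and was 4305 nt from any replicate 2 site. The next strongest scored 71 at 62392692 to 62392709, 39 nt from a replicate 2 site with a score of 21.

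In replicate 2, 63 sites did not overlap, at a median distance of 1625 nt from the nearest replicate 1 site. Within 1000 nt of a replicate 1 site lay 44.4% of all 72 sites, overlapping ones included, against 29.5% of the list. The same limit from the choice of the window holds here. Several of the unshared sites were strong. The second strongest of the window, with a score of 339 at 62398547 to 62398608, was also its longest, and it ended 15 nt short of the weak replicate 1 site at 62398624. The fourth strongest, with a score of 280 at 62382866 to 62382879, had no replicate 1 site within 5 kb: the nearest lay 5085 nt away.

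The other unshared replicate 2 sites with scores of at least 100 were spread over the window. They scored 119 at 62340071 to 62340084, 134 at 62346325 to 62346345, 159 at 62393109 to 62393129 and 108 at 62400517 to 62400536. Of these, the site at 62393109 lay 45 nt from a replicate 1 site with a score of 30. The other 3 were between 1314 nt and 4912 nt away from one.

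Sites were unevenly placed along the window, in a similar way in both lists. Above the midpoint of the window lay 70% of the sites in replicate 1 and 69.4% of those in replicate 2. Of the 23 bins of 5 kb, 11 held a site of replicate 1 and 18 a site of replicate 2, and 9 held both. The bins with a site of replicate 1 but none of replicate 2 numbered 2, and 3 bins were empty in both.

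**Figure D4:**
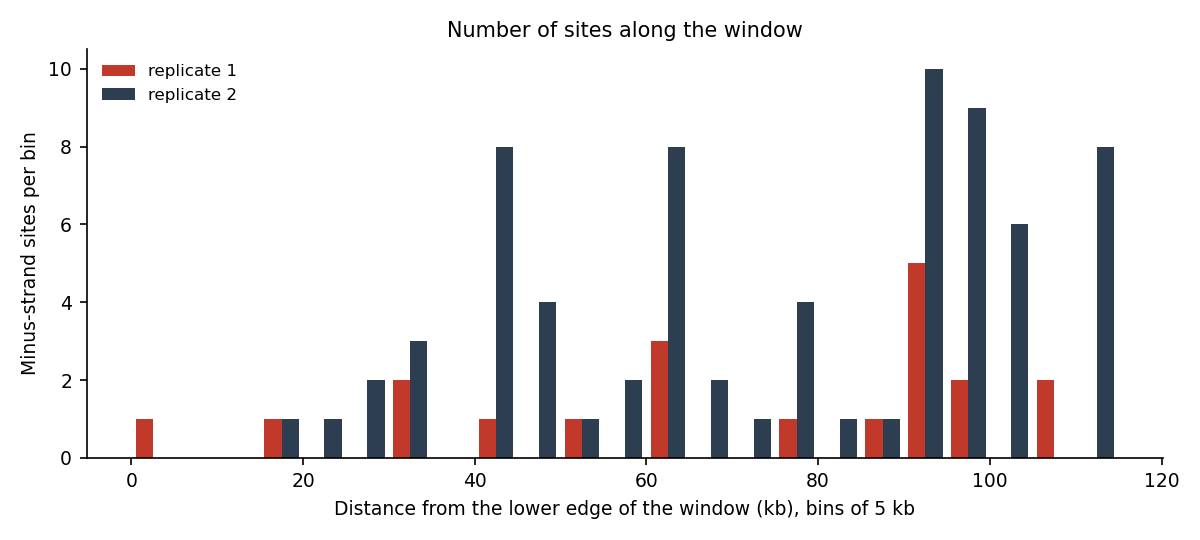
Bars give the number of minus-strand sites in each bin of 5 kb, by distance from the lower edge of the window, for replicate 1 and replicate 2 side by side. Both are highest in the bin from 62390001 to 62395000, with 5 and 10 sites.

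The densest bin was the same in both lists. It ran from 62390001 to 62395000 and held 5 sites in replicate 1 and 10 in replicate 2, with score sums of 239 and 400. The bin above it, to 62400000, held 2 and 9 sites. The bin from 62360001 to 62365000 followed in replicate 1 with 3 sites, and held 8 in replicate 2. A bin of 8 replicate 2 sites, from 62340001 to 62345000, held 1 site of replicate 1.

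The uppermost bins differed between the lists. From 62400001 to 62405000 replicate 2 had 6 sites and replicate 1 none, and from 62405001 to 62410000 replicate 1 had 2 sites and replicate 2 none. The last bin, from 62410001 to 62415000, held 8 replicate 2 sites of low score, 36 at most, and none of replicate 1. Each library gives 1 value here, so the differences were not tested.

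The lowest part of the window was nearly bare. Between 62300001 and 62315000 there was 1 site, at 62300186 to 62300202 in replicate 1, with a score of 33. The widest gap between neighbours reached from 62315482 to 62334901 in replicate 1 (19418 nt) and from 62315471 to 62324748 in replicate 2 (9276 nt). Both gaps began at the same shared site. Elsewhere neighbours were closer, with a median gap of 2454 nt (replicate 1) and 548 nt (replicate 2).

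The stretches on either side were sparser on the minus strand. The 115 kb below the window held 0 sites in replicate 1 and 2 in replicate 2. The 115 kb above it held 7 and 40 minus-strand sites, of which 2 in each list were shared, beside 2 and 13 plus-strand sites. The window thus ended in sparse sequence below, but sites continued above it. At the upper limit, the last replicate 2 site inside lay at 62414465 to 62414487 with a score of 16, and the first outside at 62415588 to 62415603 with a score of 11. For replicate 1 the corresponding sites were at 62408462 with a score of 20 and at 62416016 with a score of 90. At the lower limit, the first replicate 2 site inside scored 33 at 62315455, and the nearest outside scored 15 at 62288658.

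Among windows of 100 kb, the one from 62300001 to 62400000 had the fifth best mean rank by number of sites on 1 strand, out of 12636 strand windows with a site. The 4 ranked above it lay on chromosomes 16, 16, 17 and 1. The chromosome 11 window had 18 and 58 sites in replicate 1 and replicate 2, and the median over strand windows was 1 and 2. Its share of shared sites was 50% in replicate 1, against 52.6%, 27.8%, 18.8% and 29.4% in the other 4 windows in that order. In replicate 2 it was 15.5%, against 12.7%, 6.41%, 3.80% and 8.20%. Its summed score was the lowest of these windows in replicate 1, with 1073 against 4642, 4040, 1868 and 1205. In replicate 2 it was 3482, above the 3469 of the chromosome 17 window and below the 5708, 5120 and 4039 of the others. These differences between windows were not tested. The chromosome 11 window was chosen by its number of sites, so that number and its rank are a description and support nothing.

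The site names carry a further count. Each name holds a number that never falls along the list, by chromosome, strand and position, and many numbers are skipped. No source used here states what a skipped number stands for. From the first to the last shared pair of the window, the numbers advanced through 108 values in replicate 1 and 146 in replicate 2, a ratio of replicate 2 to replicate 1 of 1.35. Of these numbers, 17 in replicate 1 (15.7%) and 50 in replicate 2 (34.2%) had a listed site. Over the whole lists the numbers reached 248010 and 235517, and 6.75% and 22.2% had a listed site.

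The numbers thus differed less between the experiments than the sites did. Between neighbouring shared pairs, replicate 2 passed more numbers in 4 of 8 intervals, replicate 1 in 3, and 1 was equal. Replicate 2 had more numbers with a listed site in 7 of the 8. The interval with the most numbers lay between the pairs at 62360853 and 62377762. There replicate 1 passed 29 numbers, of which 3 had a site, and replicate 2 passed 45, of which 11 had a site. None of the 20 numbers with a site in the window carried more than 1 in replicate 1, against 201 of 16741 in its list. For replicate 2 it was 8 of 64, against 2903 of 52377 in its list. This was not tested.

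**Figure D5:**
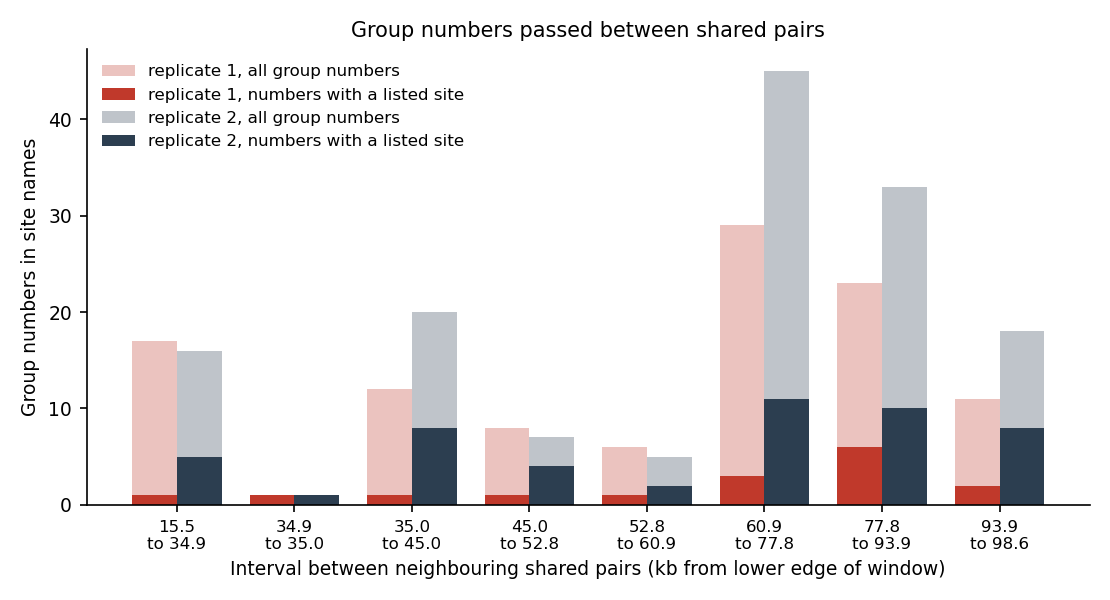
For each of the 8 intervals between neighbouring shared pairs, pale bars give how many numbers the site names passed and dark bars how many of these had a listed site, for replicate 1 and replicate 2. The pale bars reach 29 and 45 in the interval where they are highest, and the dark bars of replicate 2 are higher than those of replicate 1 in 7 of 8 intervals.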

How the data were processed

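PAR-CLIP was run as 2 libraries of HEK293T cells expressing FLAG-tagged SOX2. The labels call the experiments independent and say no more on this. Per the labels' protocols, cDNA went through 18 cycles of PCR, and single reads of 50 nt were taken. Named in the submitters' processing notes are Bowtie 1.1.2, bcl2fastq and hg19. The site caller, its thresholds and the handling of reads with several matches are not stated in any source used here, so how they shape the lists is unknown. The authors deposited 1 list per library with a score per site, a whole number whose meaning is not stated. Reads amplified without molecular identifiers are not independent molecules, and depth per sample is unknown.

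Lists were read in Python 3.11.15 with pandas 2.3.3 and numpy 2.4.6, and positions were converted to counting from 1. A window site lay wholly inside the limits. Sites were shared when they had at least 1 nt in common on the same strand. Shares carry Wilson intervals (scipy 1.17.1). The score classes had limits of 10, 20, 50 and 100. On simulated lists, this overlap search was tested and found every site placed on another. Named sites were all shared pairs, the 5 highest-scoring sites of each replicate and the plus-strand sites; further unshared sites were named after their values were seen. The members and these rules were chosen with earlier results of these data known. No hypothesis test was run, since the design has 1 group. The planned count by gene and exon was not run, because annotation of the lists' build was not used here.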

Additional observations from a re-analysis of the deposited data

How the results depend on the processing

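The alternatives gave 52 recomputed values. Numbers, shares and scores cannot be negative, so only the median log2 score ratio could change sign, and it stayed negative. Of the 52 values, 37 stayed within their interval, within the spread between replicates or, for numbers of sites, within 1.5 times. With 2 replicates, each value always lies within 1 SD of their mean. Shares and scores with 1 replicate left out were therefore bound to be among the 37. For the share of the score sum these were 0.0766% and 0.0221%, around a mean of 0.0493%. The median log2 score ratio has no spread between replicates. It was -0.61 with at least 50% of both sites in common, against -0.52, and the SD over the 9 pairs was 1.01. Score limits moved the numbers most. At or above the median score of each list, 12 sites in replicate 1 and 45 in replicate 2 remained, and the minus-strand share in replicate 2 was 100%. At scores of at least 100 the numbers were 3 and 10, all on the minus strand (100% in both), and 100% and 30% of them overlapped a site of the other list that also scored at least 100. Replicate 2 limited to its 16964 highest-scoring sites kept 33 sites, and 35% of replicate 1 sites were then shared. With at least 50% of both sites in common, 7 pairs were left. With gaps of up to 50 nt allowed, 65% of replicate 1 sites and 20.8% of replicate 2 sites had a partner, against 31.5% and 10.7% of the lists. For the other settings that changed the shared sites, shares over the whole lists were not computed. The share of the score sum was 0.0548% in replicate 1 and 0.117% in replicate 2 without the 10 strongest sites of the list, against 0.0221% and 0.0766% with them. The median score per nt was 1.89 and 1.42, on another scale by construction. Leaving out each replicate gave 20 to 72 sites around their mean of 46. The causes of these shifts were not tested beyond the removal of sites itself. Bins of 10 kb were computed and are not described. No paired analysis was possible because both libraries belong to 1 group. Unknown depth limits what the absence of a site in 1 list can mean.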
